A study of Homo sapiens and Mus musculus with 10 samples.

Results

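The genes that brake entry into the cell division cycle were read in a human and a mouse myeloid line after inhibition of the histone acetyltransferase KAT6A. They are the 7 genes for inhibitors of cyclin-dependent kinases (CDKs), namely CDKN1A, CDKN1B, CDKN1C, CDKN2A, CDKN2B, CDKN2C and CDKN2D, and the 3 genes of the retinoblastoma family, RB1, RBL1 and RBL2. The members were taken by symbol, ignoring case, and all 10 were listed in each table, among 27800 human and 24493 mouse symbols. MOLM-13 cells come from a human acute myeloid leukaemia with an MLL fusion gene. There were 3 libraries from cells given 4 µM WM-1119 and 3 from cells given DMSO, the solvent, for 4 days. ER-Hoxa9 cells are mouse myeloid progenitors held immature by a form of HOXA9 that needs estrogen to act. There were 2 libraries from cells given 2 µM WM-1119 and 2 from cells given DMSO for the same time. WM-1119 blocks the enzymatic activity of KAT6A. All ER-Hoxa9 cells, with or without the inhibitor, were grown with β-estradiol and medium holding stem cell factor, and all MOLM-13 cells in the same base medium without them. The labels do not say that replicates were separate cultures, so each p reflects only how much these libraries vary, and that variation may be technical. The doses differ and the tables were normalized separately, so the lines are set side by side and were not tested against each other.

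Cells pass from G1 into S phase when complexes of D cyclins with CDK4 or CDK6, and of cyclin E with CDK2, phosphorylate the retinoblastoma proteins and release E2F transcription factors. The INK4 inhibitors, encoded by CDKN2A to CDKN2D, bind CDK4 and CDK6, while the CIP/KIP inhibitors, encoded by CDKN1A to CDKN1C, act on CDK2 complexes and can also bind those of D cyclins. In mouse fibroblasts, loss of KAT6A activity is known to bring on senescence that depends on the Ink4a-Arf locus.

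The stretches before the transcription starts of 4 members are shown because the results below turn on these genes. CDKN2A was listed at or near 0 in every MOLM-13 library, and CDKN2D had WM-1119 libraries that all lay above the DMSO libraries in this line. For CDKN2C and RBL1 the groups overlapped in MOLM-13 and lay apart in mouse ER-Hoxa9 cells, whose own promoters are not shown: all sequences here are human. Each sequence gives the 250 bases before a RefSeq start (GRCh38.p14), and capitals mark matches to an E2F core, searched as TTNNCGC on both strands. The first CDKN2A start belongs to the ARF transcript and the second to the p16 transcript.
CDKN2A, ARF start, chr9:21995325-21995574, minus strand: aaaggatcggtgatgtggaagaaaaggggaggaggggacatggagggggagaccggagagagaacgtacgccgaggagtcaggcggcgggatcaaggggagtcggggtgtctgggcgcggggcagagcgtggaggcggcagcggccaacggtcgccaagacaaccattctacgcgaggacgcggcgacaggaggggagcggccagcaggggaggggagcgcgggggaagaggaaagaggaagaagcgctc
CDKN2A, p16 start, chr9:21974858-21975107, minus strand: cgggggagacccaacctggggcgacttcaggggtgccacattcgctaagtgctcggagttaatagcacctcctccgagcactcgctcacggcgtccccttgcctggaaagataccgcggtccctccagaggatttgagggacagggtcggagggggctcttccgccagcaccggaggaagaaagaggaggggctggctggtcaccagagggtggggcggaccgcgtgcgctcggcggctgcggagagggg
CDKN2C, chr1:50968456-50968705, plus strand: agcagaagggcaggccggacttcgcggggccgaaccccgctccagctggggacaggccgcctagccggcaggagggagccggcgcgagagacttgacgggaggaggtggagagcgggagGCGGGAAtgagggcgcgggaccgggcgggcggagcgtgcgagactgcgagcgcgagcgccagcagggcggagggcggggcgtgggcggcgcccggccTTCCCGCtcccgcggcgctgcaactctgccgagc
CDKN2D, chr19:10568980-10569229, minus strand: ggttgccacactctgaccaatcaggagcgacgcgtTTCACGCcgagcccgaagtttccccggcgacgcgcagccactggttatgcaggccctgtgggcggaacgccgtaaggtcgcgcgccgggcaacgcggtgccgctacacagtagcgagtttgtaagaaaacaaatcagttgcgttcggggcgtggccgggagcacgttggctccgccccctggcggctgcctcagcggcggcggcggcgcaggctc
RBL1, chr20:37095998-37096247, minus strand: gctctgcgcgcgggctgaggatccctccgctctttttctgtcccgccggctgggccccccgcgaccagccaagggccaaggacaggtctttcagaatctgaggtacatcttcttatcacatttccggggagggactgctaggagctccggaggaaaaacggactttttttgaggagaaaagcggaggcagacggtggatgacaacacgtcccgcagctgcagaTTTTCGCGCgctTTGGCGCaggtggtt

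The RBL1 window held 3 E2F core matches, of which 2 overlap, starting 27, 25 and 15 bases before the start. CDKN2C held 2 matches, at 131 and 34 bases before the start shown, and 0 before its other RefSeq starts. CDKN2D held 1 match, 215 bases before its start, and neither CDKN2A window held one. Among the 13 windows of the members, those of CDKN1A, CDKN1B, CDKN2B, RB1 and RBL2 also held none. Such a match was present in 21.7% of 35116 windows of the same length. The cell-cycle homology region, searched as TTTGAA on both strands, was in none of the members' windows and in 13.3% of all windows. CDKN1C had no window. That of RB1 (chr13:48476200-48476449) lies inside the gene, which starts at 48303726, so the bases before that start were not searched. The SP1 box, searched as GGGCGG on both strands, was in 42.6% of all windows. There were 5 matches in the CDKN2C window shown, 4 in that of CDKN1A, and 2 each in those of CDKN2B and CDKN2D. CDKN1B, the p16 start and another CDKN2C start had 1 each, and the remaining windows of the members held none. The matches describe letters only, since no factor binding was measured.

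Values are TPM, a share of the library scaled for transcript length, so levels of different genes can be compared within a library. TPM keep no record of read numbers, so how deeply each library was sequenced is unknown. A library held 11042 to 12416 genes at 1 TPM or more. In MOLM-13, the DMSO library of replicate 3 stood apart, with ribosomal protein genes at 37.6% of its TPM, against 24.1% to 31.9% in the other libraries. Its 20 G2/M genes summed to 441 TPM, against 979 and 1090 TPM in the other DMSO libraries. The WM-1119 library of replicate 3 was also the lowest of its group, at 625 against 1074 and 1125 TPM. For the members and lists that the DMSO library of replicate 3 bears on, values without it are given. Leaving it out alone keeps its low WM-1119 partner, so values without the pair are given beside many of them. Replicate 3 of both groups stood apart in haemoglobin genes, the erythroid list summing to 226 TPM with WM-1119 and 160 TPM with DMSO there, and to 10.0 to 16.2 TPM in the other 4 libraries. HBA1 was at 158 and 95.2 TPM in the WM-1119 and DMSO libraries of replicate 3 and HBB at 49.4 and 52.1 TPM. In ER-Hoxa9 the DMSO library of replicate 1 was the lower of its pair in G2/M genes, at 744 against 1180 TPM, and in Mpo, a granule enzyme, at 385 against 1380 TPM. Markers of the myeloid lineage were present, with SPI1 averaging 290.2 and 254 TPM in WM-1119 and DMSO libraries of MOLM-13, and 131 and 87.7 TPM in those of ER-Hoxa9. KIT was at 0.278 and 0.281 TPM in MOLM-13 and at 269 and 216 TPM in ER-Hoxa9. CSF1R averaged 26.8 and 24.2 TPM in MOLM-13 and stayed under 1 TPM in ER-Hoxa9. Of other lineages, the T or NK cell list summed to 126 to 147 TPM with WM-1119 and 92.3 to 162 TPM with DMSO in MOLM-13, most of it NKG7, and the mast cell list to 158 to 583 TPM and 363 to 630.3 TPM in ER-Hoxa9, nearly all of it Cpa3. The T cell gene CD2 was listed at 0 in every library of both lines, but CD3D of the same list was detected in all. In MOLM-13 it was at 1.69, 7.05 and 5.48 TPM with WM-1119 and at 3.09, 17.03 and 15.8 TPM with DMSO, with overlap. In ER-Hoxa9 Cd3d was at 5.51 and 5.33 TPM with WM-1119 and at 7.37 and 6.76 TPM with DMSO, without overlap.

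**Figure D1:**
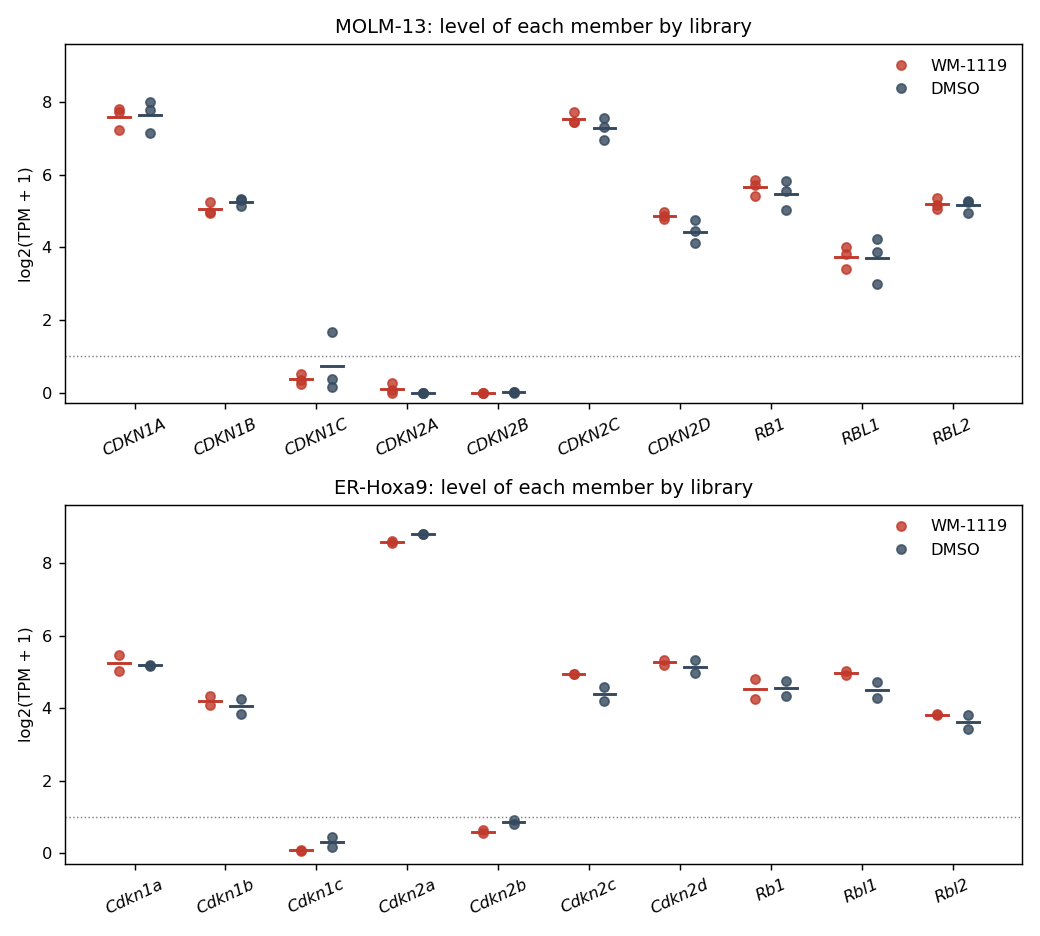
Level of each member in every library, as log2(TPM + 1), with WM-1119 libraries to the left of DMSO libraries, bars at the group means and a dotted line at 1 TPM. CDKN1A and CDKN2C lead in MOLM-13, where CDKN2A and CDKN2B lie at or near 0, and Cdkn2a leads in ER-Hoxa9.

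The most abundant inhibitors differed between the lines. In MOLM-13, CDKN1A and CDKN2C were far above the other members, and in ER-Hoxa9 a single gene, Cdkn2a, stood above all others. No member passed the test for a difference between WM-1119 and DMSO in either line. The groups did not overlap for CDKN2D in MOLM-13, nor for Cdkn2c, Rbl1 and Cdkn2a among the tested members of ER-Hoxa9. Of all tested genes, 4.54% were higher with WM-1119 without overlap in MOLM-13, and 40.3% higher and 7.94% lower in ER-Hoxa9, so the separation of Cdkn2c and Rbl1 is common in that line.

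Among the CIP/KIP genes, CDKN1A encodes p21, which arrests cells after DNA damage as a target of p53. In MOLM-13 it stood at 149, 225 and 212 TPM in the WM-1119 libraries of replicates 1, 2 and 3, and at 141, 254 and 221 TPM in the DMSO libraries. The groups overlapped, and the lowest value of each came from replicate 1. The means were 195 ± 40.4 and 205 ± 58.2 TPM (SD, n = 3 each), a log2 difference of -0.05 ± 0.28 (SE). Here and below such a difference is that of log2(TPM + 1), WM-1119 minus DMSO. Its 95% interval ran from -0.70 to 0.60 (limma adjusted p = 0.99999), and from -0.25 to 0.15 with the replicate number as a block (adjusted p = 0.760). Without the DMSO library of replicate 3 the difference was 0.024. In ER-Hoxa9, Cdkn1a was at 31.5 and 42.8 TPM with WM-1119 and at 35.8 and 34.7 TPM with DMSO, and the WM-1119 libraries lay on either side of the DMSO libraries. The difference of 0.06 ± 0.17 did not pass (adjusted p = 0.903), with an interval of -0.38 to 0.50.

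CDKN1B encodes p27, a brake on CDK2 that accumulates in resting cells. It was at 30.4, 29.7 and 37.1 TPM in the WM-1119 libraries of MOLM-13 and at 34.02, 39.4 and 38.2 TPM in the DMSO libraries. Each WM-1119 library was below the DMSO library of the same number, while the groups overlapped. The difference was -0.20 ± 0.18 (adjusted p = 0.99999), and -0.20 ± 0.09 with the replicate number as a block (adjusted p = 0.337). In ER-Hoxa9, Cdkn1b was at 15.9 and 19.2 TPM with WM-1119 and at 13.4 and 18.2 TPM with DMSO. There the difference had the other sign, at 0.15 ± 0.19 (adjusted p = 0.751). Neither line passed, and whether the lines differ was not tested.

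CDKN1C encodes p57, an imprinted inhibitor that is important in development and in resting stem cells. In MOLM-13 it was at 0.178, 0.424 and 0.269 TPM with WM-1119 and at 0.105, 2.15 and 0.289 TPM with DMSO, so the higher DMSO mean came from replicate 2 alone. In ER-Hoxa9 Cdkn1c was at 0.0722 and 0.0454 TPM with WM-1119 and at 0.129 and 0.357 TPM with DMSO. Its mean was under 1 TPM in both lines, so it was not tested.

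Among the INK4 genes, CDKN2A encodes 2 unrelated proteins from different first exons, p16, which binds CDK4 and CDK6, and ARF, which stabilises p53. Both products are counted under 1 symbol, so their shares are not known. In the WM-1119 libraries of MOLM-13 the gene was listed at 0, 0.0531 and 0.194 TPM, and in the DMSO libraries it was listed at 0 in all 3. Its neighbour CDKN2B, which encodes p15, an inhibitor induced by TGF-beta, was listed at 0 in the 3 WM-1119 libraries and at 0.0142, 0 and 0.0110 TPM in the DMSO libraries. Both genes lie on the minus strand of chromosome 9 (CDKN2A at 21967753 to 21995301 and CDKN2B at 22002903 to 22009363, GRCh38, GENCODE release 29). Their transcripts share 70 of the 4474 distinct stretches of 31 bases of CDKN2A.

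Other genes near CDKN2A were detected in MOLM-13. A window of 1 Mb on each side of CDKN2A held 23 coding genes of the table, chosen after the values were seen. MTAP, an enzyme of methionine salvage and the nearest coding gene on the side away from CDKN2B, was at 11.3, 8.32 and 7.49 TPM with WM-1119 and at 11.2, 7.94 and 7.07 TPM with DMSO. KLHL9, a ubiquitin ligase adaptor, was at 3.02 to 4.42 TPM and at 3.20 to 4.30 TPM. CDKN2B-AS1, a long non-coding RNA that runs on the opposite strand and overlaps both genes, was at 0.532, 0.798 and 1.41 TPM with WM-1119 and at 0.714, 0.373 and 1.22 TPM with DMSO. Whether the libraries kept strand is not given in the sources used here, so low reads at overlapping genes cannot be assigned with certainty. Over all MOLM-13 libraries HACD4 was at 5.28 to 8.71 TPM and FOCAD at 3.35 to 6.31 TPM. The remaining genes of the window were mostly interferon genes. Of the 23, which include CDKN2A and CDKN2B, 17 stayed under 0.1 TPM in every library.

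In ER-Hoxa9 the same locus gave the highest value of all 10 members. Cdkn2a was at 376 and 387 TPM with WM-1119 and at 440.5 and 441 TPM with DMSO. The WM-1119 mean of 382 ± 7.41 TPM was at or above the means of 97.5% of the tested genes, and the DMSO mean of 441 ± 0.507 TPM at or above those of 98.0% (SD, n = 2 each). Both WM-1119 libraries were below both DMSO libraries, a difference of -0.21 ± 0.10 that did not pass (adjusted p = 0.449; interval -0.46 to 0.05). With median-of-ratios scaling, which centres the bulk of genes on no change, it was -0.35. Cdkn2b, next to it, was at 0.576 and 0.465 TPM with WM-1119 and at 0.754 and 0.894 TPM with DMSO, also without overlap, but under the 1 TPM needed for a test.

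CDKN2C encodes p18, an INK4 inhibitor that restrains the cycling of blood stem cells in mice. In MOLM-13 it was at 209, 174 and 173 TPM with WM-1119 and at 186.5, 158 and 123 TPM with DMSO. It was higher with WM-1119 in each same-numbered pair, though the groups overlapped. The difference was 0.26 ± 0.21 (adjusted p = 0.99999), and with the replicate block 0.26 ± 0.10 (adjusted p = 0.262). Without the DMSO library of replicate 3 it was 0.10, and in the replicate block without the replicate 3 pair 0.15. In ER-Hoxa9 Cdkn2c was far less abundant, at 29.5 TPM in each WM-1119 library and at 17.5 and 23.1 TPM in the DMSO libraries. The groups did not overlap, and the difference of 0.53 ± 0.16 had an interval from 0.12 to 0.95 but did not pass over all genes (adjusted p = 0.329). It was 0.39 with median-of-ratios scaling and 0.34 without the DMSO library of replicate 1.

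CDKN2D encodes p19, another INK4 inhibitor of CDK4 and CDK6. In MOLM-13 it was at 26.4, 28.1 and 30.4 TPM with WM-1119 and at 20.7, 25.8 and 16.3 TPM with DMSO. It was the only tested member of this line whose WM-1119 libraries all lay above all DMSO libraries. The means were 28.3 ± 2.00 and 20.9 ± 4.74 TPM (SD, n = 3 each), a difference of 0.44 ± 0.21 with an interval of -0.04 to 0.92 (adjusted p = 0.99999; 0.257 with the replicate block). Without the DMSO library of replicate 3, which was the lowest, the difference was 0.28, and in the replicate block without the replicate 3 pair 0.23. In ER-Hoxa9 Cdkn2d was at 39.2 and 35.7 TPM with WM-1119 and at 30.4 and 39.0 TPM with DMSO, and the groups overlapped (difference 0.12 ± 0.16, adjusted p = 0.767).

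**Figure D2:**
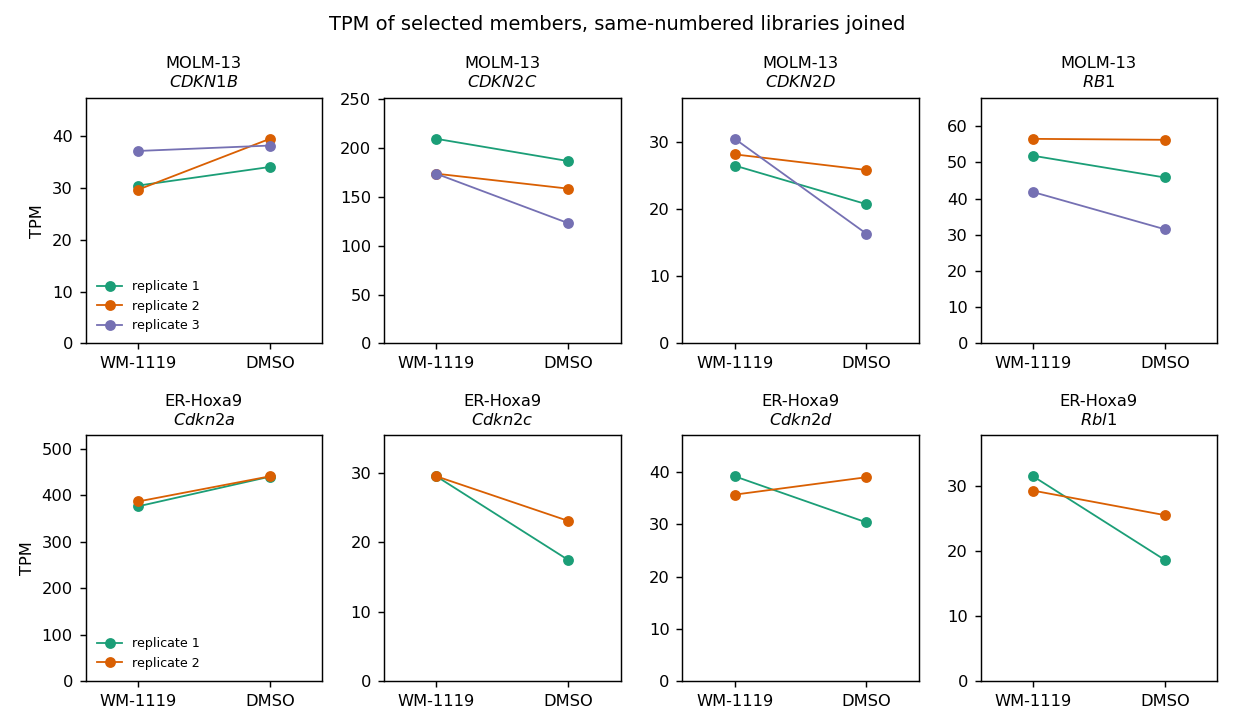
TPM of 4 members in each line, WM-1119 to the left of DMSO, with libraries of the same replicate number joined. CDKN2D of MOLM-13 and Cdkn2c and Rbl1 of ER-Hoxa9 lie above the DMSO libraries in every WM-1119 library, and Cdkn2a below them.

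The retinoblastoma family comprises RB1, the tumour suppressor that holds activating E2F factors, RBL1 (p107), which is made in cycling cells, and RBL2 (p130), which leads the repressive DREAM complex of resting cells. In MOLM-13, RB1 was the most abundant of the family, at 51.8, 56.5 and 41.8 TPM with WM-1119 and at 45.8, 56.2 and 31.5 TPM with DMSO. It was higher with WM-1119 in each pair, by 0.19 ± 0.25 (adjusted p = 0.99999; 0.357 with the replicate block), and the groups overlapped. Without the DMSO library of replicate 3 the difference was -0.03, and in the replicate block without the replicate 3 pair it was 0.09. In ER-Hoxa9, Rb1 was at 26.8 and 18.1 TPM with WM-1119 and at 19.2 and 26.0 TPM with DMSO, a difference of -0.02 ± 0.24 (adjusted p = 0.986).

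RBL1 varied more between the replicates of MOLM-13 than between the treatments. It was at 15.0, 13.1 and 9.49 TPM with WM-1119 and at 17.8, 13.7 and 6.95 TPM with DMSO, and the lowest value of each group was that of replicate 3. The difference was 0.04 ± 0.34 (adjusted p = 0.99999), and -0.32 without the DMSO library of replicate 3. Its interval with the replicate block was -0.32 to 0.40 (adjusted p = 0.904). The summed TPM of the 20 G2/M genes had the same order within each group, at 1125, 1074 and 625 TPM with WM-1119 and at 1090.1, 979 and 441 TPM with DMSO. In ER-Hoxa9, Rbl1 was at 31.4 and 29.2 TPM with WM-1119 and at 18.6 and 25.5 TPM with DMSO, without overlap. The difference of 0.46 ± 0.18 had an interval of 0.01 to 0.91 and did not pass over all genes (adjusted p = 0.385), and it was 0.32 with median-of-ratios scaling and 0.24 without the DMSO library of replicate 1. The G2/M genes summed to 1772 and 1389 TPM in these WM-1119 libraries and to 744 and 1180 TPM in the DMSO libraries, also without overlap. The part of cell-cycle activity in the Rbl1 value was not tested.

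RBL2 was near equal between the groups of MOLM-13, at 39.7, 35.2 and 32.1 TPM with WM-1119 and at 38.0, 37.2 and 29.6 TPM with DMSO (difference 0.03 ± 0.19, interval -0.40 to 0.47, adjusted p = 0.99999). The interval with the replicate block was -0.15 to 0.22 (adjusted p = 0.838). Without the DMSO library of replicate 3 the difference was -0.079. In ER-Hoxa9, Rbl2 was at 13.31 and 13.03 TPM with WM-1119 and at 9.83 and 13.04 TPM with DMSO (0.20 ± 0.17, adjusted p = 0.624). The ratio of RBL1 to RBL2 averaged 0.349 ± 0.0462 and 0.357 ± 0.117 in WM-1119 and DMSO libraries of MOLM-13, where RBL2 was the more abundant. In ER-Hoxa9 the ratio averaged 2.30 ± 0.0839 and 1.92 ± 0.0444, with Rbl1 the more abundant in every library.

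**Figure D3:**
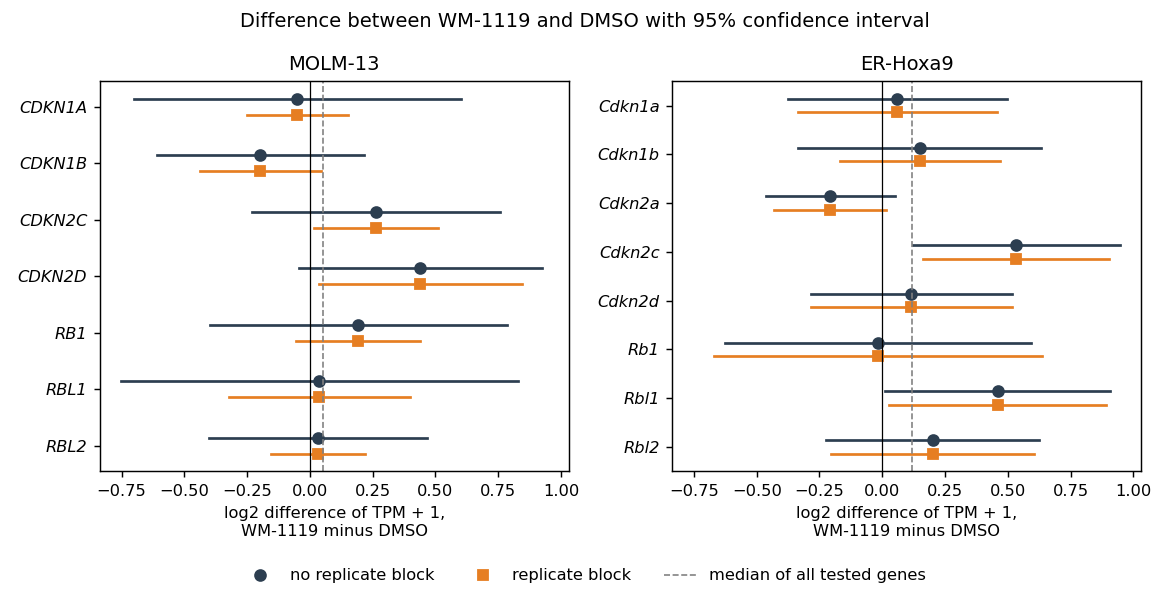
Difference of log2(TPM + 1), WM-1119 minus DMSO, for each tested member with its 95% confidence interval from limma, without and with the replicate number as a block. In MOLM-13 the blocked intervals of CDKN2C and CDKN2D lie above 0, and in ER-Hoxa9 those of Cdkn2c and Rbl1 do so in both fits, while no member passed after adjustment over all genes.

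In order of level, the members fell into steps. In the WM-1119 libraries of MOLM-13, CDKN1A (195 TPM) and CDKN2C (185 TPM) overlapped each other and lay above RB1 at 50.05 TPM. RBL2, CDKN1B and CDKN2D followed at means of 28.3 to 35.7 TPM, each overlapping the next, and RBL1 lay below them at 12.6 TPM. In the DMSO libraries CDKN1A (205 TPM) and CDKN2C (156 TPM) led again, RB1, CDKN1B and RBL2 overlapped in turn at means of 34.9 to 44.5 TPM, and CDKN2D overlapped RBL1 at 20.9 and 12.8 TPM. CDKN1C, CDKN2A and CDKN2B averaged under 1 TPM in both groups. In the WM-1119 libraries of ER-Hoxa9, Cdkn2a was followed at a distance by Cdkn2d and Cdkn1a, at 37.4 and 37.2 TPM with overlapping libraries, and then by Rbl1 and Cdkn2c at 30.3 and 29.5 TPM, which lay above Rb1 without overlap. In the DMSO libraries Cdkn1a and Cdkn2d stood at 35.2 and 34.7 TPM, followed by Rb1, Rbl1, Cdkn2c and Cdkn1b, each of which overlapped the next. Rbl2 came below them in both groups, at 13.2 and 11.4 TPM with WM-1119 and DMSO.

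Summed over the 7 inhibitors, MOLM-13 held 442 ± 22.8 TPM with WM-1119 and 420.2 ± 52.3 TPM with DMSO, and ER-Hoxa9 504 ± 15.1 and 548 ± 13.5 TPM. In MOLM-13, CDKN1A made up 44.0% and 48.4% of this sum in WM-1119 and DMSO libraries, and CDKN2C 42.2% and 37.6%. In ER-Hoxa9, Cdkn2a made up 75.8% ± 0.804 and 80.5% ± 1.89 (SD, n = 2 each). The INK4 sum of MOLM-13 was 202 to 236 TPM with WM-1119 and 139 to 207 TPM with DMSO, so it overlapped between the groups. The CIP/KIP sum of MOLM-13 was 180.1 to 255 and 175 to 296 TPM. In ER-Hoxa9 the INK4 sum was 446 to 453 TPM with WM-1119 and 489 to 504 TPM with DMSO, and that of all inhibitors 493 to 515 and 538 to 557 TPM, both lower with WM-1119 without overlap. Cdkn2a makes up most of both sums, and the CIP/KIP sum overlapped, at 47.5 to 62.03 and 49.3 to 53.2 TPM.

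**Figure D4:**
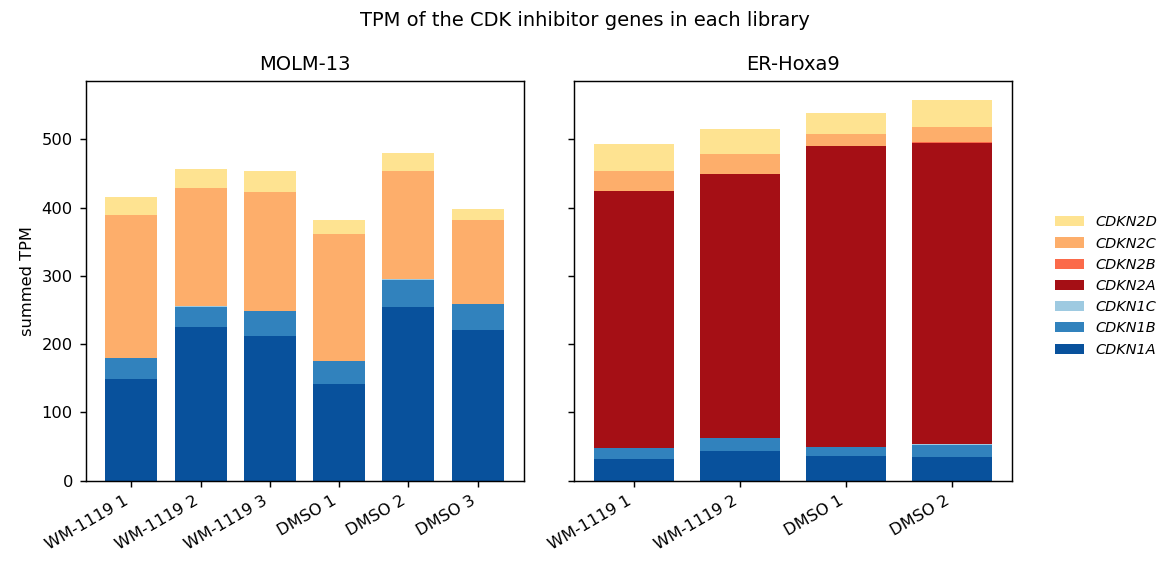
Summed TPM of the 7 CDK inhibitor genes in each library, stacked by gene under the human symbols, with WM-1119 libraries to the left of DMSO libraries. CDKN1A and CDKN2C fill most of each MOLM-13 bar, and Cdkn2a most of each ER-Hoxa9 bar.

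Of the 10 members, 7 had a mean of at least 1 TPM in MOLM-13 and 8 in ER-Hoxa9, and only these were tested. With limma, 0 members were called at an adjusted p under 0.05 in either line, against 0.00804% of the 12436 genes tested in MOLM-13 and 0.0352% of the 11362 tested in ER-Hoxa9. In MOLM-13 the same-numbered libraries deviated together, and with the replicate number as a block 0 members and 0 of all genes were called. At an unadjusted p under 0.05, 0 of 7 members passed in MOLM-13 without the block, where 3.05% of all tested genes did. With the block 2 of 7 passed, CDKN2C and CDKN2D, both higher, where 13.2% of all tested genes were higher. In ER-Hoxa9 2 of 8 passed, Cdkn2c and Rbl1, both higher, where 11.6% of all tested genes were higher. Libraries without overlap were found for 1 of 7 members in MOLM-13, higher with WM-1119, where 4.54% of all tested genes had this pattern. In ER-Hoxa9, 2 of 8 members were higher without overlap and 1 was lower, where 40.3% and 7.94% of all tested genes were. For the genes that were lower without overlap the share over all tested genes of MOLM-13 was 2.43%, and 0 of 7 members were among them. In the same-numbered pairs of MOLM-13, 3 of 7 members were higher with WM-1119 in every pair, beside 28.6% of all tested genes, and 1 of 7 was lower, beside 14.4%. With so few members these shares are a description only.

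The differences of the tested members had a median of 0.04 in MOLM-13 and 0.13 in ER-Hoxa9, beside medians of 0.05 and 0.12 over all tested genes, of which 61.5% and 71.9% were positive. Scaling by median of ratios moved the median of all genes to -0.01 in each line, with 47.5% and 47.4% positive, and that of the members to -0.02 and -0.01. Under it 3 of 7 members of MOLM-13 were positive, against 5 of 7 as deposited, and 4 of 8 members of ER-Hoxa9, against 6 of 8.

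The other genes of the pathway were read in lists chosen with earlier results of these data known, and 0 of their genes passed in either line, with or without the block. Named genes are among those with the smallest unadjusted p in each list. In MOLM-13 each had an adjusted p of 0.99999 in the fit without the block. Their standard errors are of that fit unless the block is named. Without the DMSO library of replicate 3 the median over all tested genes of MOLM-13 was -0.04, and without that of replicate 1 it was 0.10 in ER-Hoxa9; list values without these libraries were added after seeing the data. Among G1 cyclins and their kinases, 4 of 12 genes were positive in MOLM-13, with a median difference of -0.02. The count was 4 after median-of-ratios scaling, 3 without DMSO replicate 3 and 4 without the replicate 3 pair. CCNE2, a cyclin E that activates CDK2, averaged 31.1 ± 8.49 and 24.4 ± 14.01 TPM with WM-1119 and DMSO (0.45 ± 0.43). CCND1, a D cyclin, was low, at 0.562 and 1.58 TPM. In ER-Hoxa9 8 of 12 were positive (median 0.13), 6 after rescaling and 8 without DMSO replicate 1, with Ccne2 at 12.1 and 7.96 TPM (0.56 ± 0.18) and Ccnd3 at 81.6 and 58.9 TPM. Adjusted p was 0.342 for Ccne2 and 0.401 for Ccnd3.

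Of the 10 E2F and DP factors, 8 were positive in each line, and after rescaling 8 in MOLM-13 and 5 in ER-Hoxa9. Only 2 were positive in MOLM-13 without DMSO replicate 3, but 7 without the whole replicate 3 pair. In ER-Hoxa9 7 were positive without DMSO replicate 1. E2F5, a repressive factor that works with RBL2, was at 2.95, 2.57 and 4.20 TPM with WM-1119 and at 5.51, 5.02 and 7.94 TPM with DMSO in MOLM-13. Its groups did not overlap, and the difference was -0.75 ± 0.23 (adjusted p = 0.99999; 0.112 with the replicate block). In ER-Hoxa9 E2f7, a repressor that is itself an E2F target, averaged 4.31 and 1.73 TPM (0.98 ± 0.22, adjusted p = 0.305). Of 8 partners in the DREAM and MuvB complexes, 7 were positive in each line, and after rescaling 7 in MOLM-13 and 4 in ER-Hoxa9. Without those DMSO libraries the counts were 2 in MOLM-13 and 6 in ER-Hoxa9, and without the replicate 3 pair 6 in MOLM-13. Foxm1, which drives mitotic genes, averaged 29.6 and 18.1 TPM in ER-Hoxa9 (0.70 ± 0.21, adjusted p = 0.335). DYRK1A, the kinase that assembles DREAM, averaged 15.3 and 13.2 TPM in MOLM-13 (0.20 ± 0.18).

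Most genes that the retinoblastoma family represses had positive differences in ER-Hoxa9, and none passed the test in either line. In MOLM-13 their direction turned when DMSO replicate 3 alone was left out, and held when the whole replicate 3 pair was. Over all libraries, 20 of 20 G2/M genes bound by DREAM were positive in each line, with medians of 0.18 in MOLM-13 and 0.72 in ER-Hoxa9, and 0.11 and 0.58 with median-of-ratios scaling. Without DMSO replicate 3, 1 of 20 was positive in MOLM-13 (median -0.24), and without the whole replicate 3 pair 16 of 20 (median 0.06). Without DMSO replicate 1, 20 of 20 were positive in ER-Hoxa9, with a median of 0.35. In ER-Hoxa9, Plk1, a mitotic kinase, averaged 70.2 and 40.2 TPM (0.80 ± 0.19, adjusted p = 0.309), and Bub1b, a checkpoint kinase, 51.4 and 29.9 TPM (0.79 ± 0.22, adjusted p = 0.312). In MOLM-13, UBE2C, a mitotic ubiquitin-conjugating enzyme, averaged 93.5 ± 9.05 and 72.5 ± 18.6 TPM (0.39 ± 0.23). Of 22 E2F targets of S phase, 20 were positive in MOLM-13 (median 0.19) and 22 in ER-Hoxa9 (median 0.32), and 18 and 17 with median-of-ratios scaling. In MOLM-13, 2 of 22 were positive without DMSO replicate 3 (median -0.29) and 16 without the replicate 3 pair (median 0.06), and in ER-Hoxa9 15 without DMSO replicate 1 (median 0.08). Tk1, thymidine kinase, averaged 64.3 and 30.02 TPM in ER-Hoxa9 (1.17 ± 0.36, adjusted p = 0.337). In MOLM-13 the summed S phase genes were at 2627, 2347 and 1295 TPM with WM-1119 and at 2641, 2046 and 917 TPM with DMSO, lowest in replicate 3 of each group.

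Regulators of the inhibitors were read next. Of 8 tested genes of p27 turnover, 8 were positive in MOLM-13 and 7 in ER-Hoxa9, and 7 and 2 with median-of-ratios scaling. Without DMSO replicate 3 in MOLM-13 and replicate 1 in ER-Hoxa9, 3 and 8 were positive, and 7 in MOLM-13 without the replicate 3 pair. Skp2, which marks p27 for destruction, averaged 18.8 and 12.02 TPM in ER-Hoxa9 (0.62 ± 0.21, adjusted p = 0.352), and CKS1B, its cofactor, 133 and 107 TPM in MOLM-13 (0.32 ± 0.19). Of 17 tested regulators of the INK4 locus, 11 were positive in MOLM-13 and 16 in ER-Hoxa9, 11 and 9 after rescaling, and 10 and 14 without those DMSO libraries. The MOLM-13 count was 11 without the replicate 3 pair. The Polycomb gene CBX2 averaged 4.88 and 2.92 TPM in MOLM-13 (0.61 ± 0.26), and Cbx8 20.9 and 14.2 TPM in ER-Hoxa9 (0.53 ± 0.12, adjusted p = 0.309). Of 4 genes of the KAT6A senescence axis of mouse fibroblasts, CDC6, EZH2, MELK and E2F2, 3 were positive in MOLM-13 and 4 in ER-Hoxa9, and 3 in each after rescaling. Without those DMSO libraries, 0 of 4 were positive in MOLM-13 and 1 of 4 in ER-Hoxa9, and without the replicate 3 pair 1 of 4 in MOLM-13. Melk, a mitotic kinase, averaged 12.7 and 7.61 TPM in ER-Hoxa9 (0.72 ± 0.27, adjusted p = 0.378). In MOLM-13, MELK averaged 18.96 and 16.97 TPM. CDC6, EZH2 and E2F2 also stand in other lists.

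Among inputs to the inhibitors, MYC, which represses CDKN1A and CDKN2B, averaged 109 ± 28.9 and 151 ± 21.8 TPM with WM-1119 and DMSO in MOLM-13 (-0.50 ± 0.25). It was lower with WM-1119 in every same-numbered pair, beside 14.4% of all tested genes, and at -0.50 ± 0.11 with the replicate block (adjusted p = 0.173). In ER-Hoxa9 Myc averaged 236 and 309 TPM without overlap (-0.39 ± 0.11, adjusted p = 0.313). Of the FOXO and SMAD list, 7 of 10 were positive in MOLM-13 and 8 of 11 in ER-Hoxa9, 3 and 2 after rescaling, and 4 and 7 without those DMSO libraries. Of p53 and its targets, 11 of 19 were positive in MOLM-13 and 11 of 16 in ER-Hoxa9, with medians of 0.02 and 0.10, 7 and 6 after rescaling, and 10 and 11 without those DMSO libraries. TP53INP1 averaged 4.68 and 6.97 TPM in MOLM-13 (-0.46 ± 0.26), and Bbc3, a p53-induced death gene, 23.5 and 35.4 TPM in ER-Hoxa9 (-0.55 ± 0.20, adjusted p = 0.374). Of 10 corepressors that bind the retinoblastoma proteins, 5 were positive in MOLM-13 and 7 in ER-Hoxa9, 5 and 6 after rescaling, and 1 and 7 without those DMSO libraries. Among them HDAC1 averaged 132 and 112 TPM in MOLM-13 (0.23 ± 0.21), and Hdac1 119 and 88.2 TPM in ER-Hoxa9 (0.44 ± 0.12, adjusted p = 0.313). In MOLM-13 without the replicate 3 pair, 4 of 10 FOXO and SMAD genes were positive. The same setting had 12 of 19 genes of the p53 list and 4 of 10 corepressors positive.

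**Figure D5:**
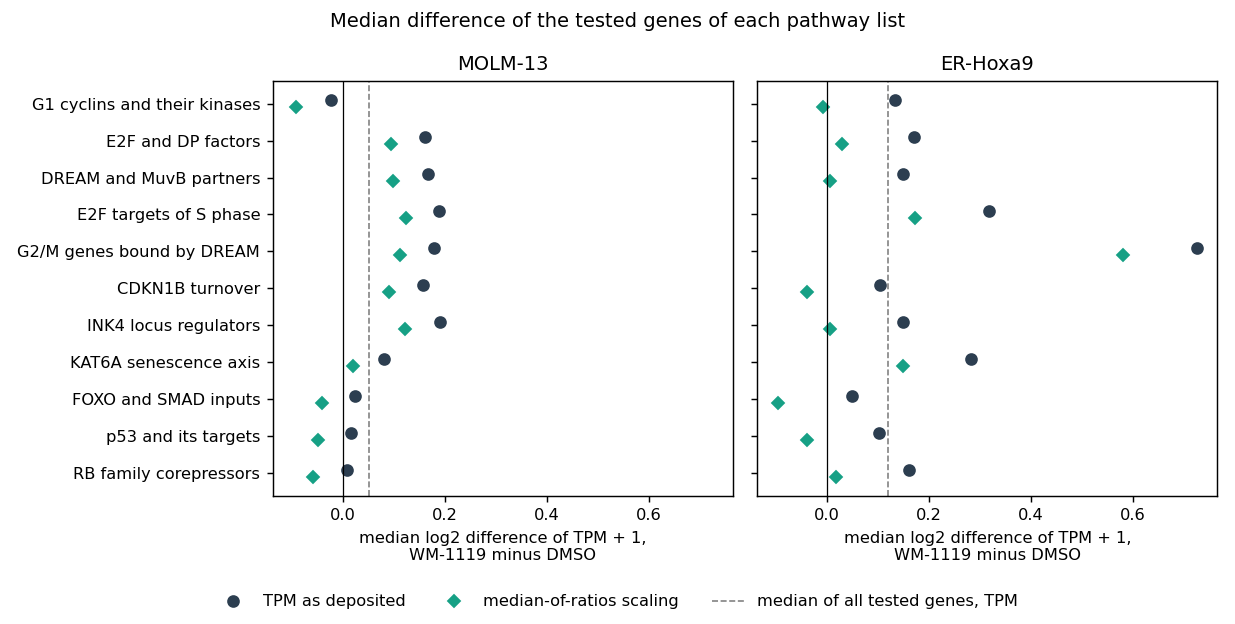
Median difference of log2(TPM + 1), WM-1119 minus DMSO, over the tested genes of each pathway list, as deposited and with median-of-ratios scaling, with a dashed line at the median of all tested genes. The G2/M list of ER-Hoxa9 has a median of 0.72 (0.35 without DMSO replicate 1). The medians above 0 of the S phase and G2/M lists of MOLM-13 lie below 0 without DMSO replicate 3 alone. Both are 0.06 without the replicate 3 pair. The lists of p53 targets and FOXO and SMAD inputs lie on either side of 0 according to the scaling in both lines. So do RB family corepressors in MOLM-13, and G1 cyclins and CDKN1B (p27) turnover in ER-Hoxa9.

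Markers of myeloid maturation had higher means with WM-1119 beside these values. Of 8 tested maturation markers, 8 were positive in each line, with medians of 0.80 in MOLM-13 and 0.89 in ER-Hoxa9, and 0 were called. The 8 were also positive without DMSO replicate 3 in MOLM-13 (median 0.52) and without DMSO replicate 1 in ER-Hoxa9 (median 0.98). The whole list summed to 3816, 3436 and 2588 TPM with WM-1119 and to 2329, 1938 and 949 TPM with DMSO in MOLM-13, most of it LYZ, lysozyme. In ER-Hoxa9 it summed to 217 and 170 TPM with WM-1119 and to 110.2 and 118 TPM with DMSO, led by Fcgr3, an Fc receptor. LTF, a secondary granule gene, averaged under 1 TPM in both lines, and Lyz2 was listed at 0 in all ER-Hoxa9 libraries. The maturation sums were higher with WM-1119 without overlap in both lines. Of all tested genes, 4.54% in MOLM-13 and 40.3% in ER-Hoxa9 had this pattern. In a bulk library, fewer cells of a kind and less RNA per cell cannot be told apart. Of the lists of other lineages in ER-Hoxa9, those of B cells and megakaryocytes lay the same way. The mast cell, erythroid and T or NK cell sums overlapped between the groups, and Cpa3 had a difference of -0.65 ± 0.65. The B cell list summed to 56.5 and 49.4 TPM with WM-1119 and to 20.8 and 32.5 TPM with DMSO, led by Cd79b. Its Cd79a was at 9.92 and 2.47 TPM on average, Pax5 at 0.302 and 0.514 TPM, and Ms4a1 was listed at 0. The megakaryocyte list summed to 56.8 and 48.9 TPM with WM-1119 and to 23.7 and 40.9 TPM with DMSO, led by Gp9 at 27.3 and 8.60 TPM on average. Its Pf4, Gp1ba and Itga2b overlapped, with Itga2b at 13.9 and 15.5 TPM on average. In MOLM-13 the B cell list summed to 2.35 to 3.13 and 1.86 to 2.93 TPM, and the megakaryocyte list to 1.45 to 1.98 and 1.37 to 2.45 TPM. The part of maturation or of these lineages in the members' values was not tested.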

How the data were processed

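RNA sequencing of 10 libraries was read from 1 table per line, in which the authors deposited TPM per gene symbol, with a library total of 1000000. Per the submitters' processing notes, Salmon made the estimates, and the builds are hg38 and mm10. Not given in the sources used here were the Salmon version, the annotation and the strand setting. Columns were matched to samples by treatment and number, with 0 left over; the mouse headers name the line in another way and were taken as ER-Hoxa9, the mouse line of the series.

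TPM depend on all other transcripts of a library and keep no depth, so no counting interval is given. The microRNA entries MIR6723 and MIR4461 took 12.8% to 21.7% of a MOLM-13 library, and Mir6236 7.23% to 10.7% of an ER-Hoxa9 library.

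Each line was fitted by itself on the log2(TPM + 1) scale, keeping genes whose mean reached 1 TPM. The tool was limma 3.58.1, run in R 4.3.3 as lmFit followed by eBayes and its trend option. Genes were called at 0.05 on p-values, two-sided, that were adjusted by Benjamini-Hochberg over everything tested. Intervals are 95% confidence intervals of that fit. The fit was tested on simulated data. The members and lists were chosen with earlier results of these data known. Every member is named whatever its value. Of each pathway list the called genes were to be named, or the 2 with the smallest unadjusted p where none was called; some of these are left to the counts.

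Deviations of same-numbered MOLM-13 libraries from their group means correlated across genes at 0.52, 0.44 and 0.61 for numbers 1, 2 and 3. All were over 0.1, so same-numbered libraries were treated as pairs in the replicate block and in the pair counts. The main fit had no block, so its errors, intervals and p-values ignore this pairing. What the pairs share is not in the labels. In ER-Hoxa9 there are 2 numbers only, and they were not taken as pairs. In MOLM-13 and in ER-Hoxa9, 0 pairs of libraries held identical values. Alternatives were a pseudocount of 0.1, no filter, the replicate block, median-of-ratios scaling, removal of the microRNA entries, eBayes without trend, each library left out, and the block without the replicate 3 pair. The block with median-of-ratios scaling, and the list values without DMSO replicate 3 or the replicate 3 pair in MOLM-13 and without DMSO replicate 1 in ER-Hoxa9, were added after seeing the data.

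Human coordinates and transcripts are from GENCODE release 29 (GRCh38), and promoter sequences from RefSeq (GRCh38.p14). Mouse sequences were not used here. Plots came from matplotlib 3.10.9 (Python 3.11.15).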

Additional observations from a re-analysis of the deposited data

How the results depend on the processing

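No member was called by limma under any alternative in either line, so a change of sign below is a move within the error. CDKN1B, CDKN2C and CDKN2D in MOLM-13 and Cdkn2a, Cdkn2c, Rbl1 and Rbl2 in ER-Hoxa9 kept their sign throughout, at -0.30 to -0.14, 0.10 to 0.40, 0.23 to 0.60, -0.35 to -0.19, 0.34 to 0.73, 0.24 to 0.68 and 0.01 to 0.39. The sign turned in 22 of the refits of the other members, and the cause was not tested. With median-of-ratios scaling, with or without the block, RBL1 and RBL2 were at -0.025 and -0.036. Median-of-ratios scaling put Cdkn1a and Cdkn2d of ER-Hoxa9 at -0.083 and -0.027. In the replicate block without the replicate 3 pair, RBL1 and RBL2 were at -0.14 and -0.0076. Leaving out 1 library at a time gave -0.30 to 0.13 for CDKN1A, -0.031 to 0.38 for RB1, -0.32 to 0.30 for RBL1 and -0.079 to 0.10 for RBL2 in MOLM-13. In ER-Hoxa9 it gave -0.15 to 0.27 for Cdkn1a, -0.058 to 0.36 for Cdkn1b, -0.060 to 0.29 for Cdkn2d and -0.29 to 0.25 for Rb1. A fit with 1 library in a group assumes that it varies like the other group.

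Over all genes, MOLM-13 had 0 called higher and 1 lower. It had 0 lower with no filter, with the replicate block alone or joined to median-of-ratios scaling, and with the block without the replicate 3 pair, and 2 lower without trend; leaving out 1 library gave 0 to 1 higher and 0 to 5 lower. ER-Hoxa9 had 2 higher and 2 lower. It had 0 and 0 with a pseudocount of 0.1, with no filter, with the replicate block and without any 1 library, 7 and 9 without trend, and 1 higher with median-of-ratios scaling or without the microRNA entries. Same-numbered ER-Hoxa9 libraries correlated at 0.206, a value that 2 numbers share by construction, so its block is given for completeness. The replicate block left the members at 0 called in both lines. TPM without read numbers, with 2 or 3 libraries a group, limit what could be detected. In MOLM-13 the medians of the E2F and DP, DREAM, S phase and G2/M lists fell below 0 without DMSO replicate 3 alone. They stayed above 0 without the replicate 3 pair, at 0.10, 0.08, 0.06 and 0.06. That of G1 cyclins and their kinases was below 0 in each of these settings. The cause was not tested.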
